A study of Rattus norvegicus with 12 samples.

Results

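The ligands Cxcl1, Cxcl2 and Cxcl3 and their receptor Cxcr2 were followed in rat prostate across 4 groups of 3 two-colour arrays each, 12 arrays in all. The probes of these 4 genes were found by the gene name that the array design gives, with Il8rb as the older name of Cxcr2. That name found 3 probes, 1 each for Cxcl1, Cxcl2 and Cxcr2. Cxcl3 had no probe under its own name and was found through Gm1960, which the RefSeq gene table (assembly GRCr8) lists as its synonym. This brought the set to 4 genes and 5 probes, of 15597 named genes on the array, and all 5 probes passed the filter on dim probes.

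All animals were male rats of 10 weeks, in groups of 5 or 6. The sham/vehicle group had a sham operation and then 5 days of vehicle, which was 0.1% Tween 80. The sham/Eviprostat group had the sham operation and 5 days of Eviprostat, a plant-based medicine given for an enlarged prostate, in doses of 18 mg/kg that made up 36 mg/kg each day. The obstruction/vehicle and obstruction/Eviprostat groups had the outflow of the bladder narrowed with a ring of rubber around the urethra, and the same vehicle or Eviprostat dosing. The prostate was removed 2 h after the last dose. Dosing began 5 days after surgery in sham rats but 1 day after it in obstructed rats, so obstruction and time since surgery cannot be told apart. Tissue was pooled within a group per the labelling protocol, although the labels call the arrays biological replicates, so the p-values reflect how much arrays differed, and how much animals differed was not measured.

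Cxcl1, Cxcl2 and Cxcl3 are small secreted chemokines that bind the G protein-coupled receptor Cxcr2, which is carried mainly by neutrophils and guides them out of the blood into inflamed tissue. Their genes are switched on in epithelial, stromal and myeloid cells by interleukin-1, tumour necrosis factor and Toll-like receptor signals acting through NF-kappa-B, and the transcripts are short-lived because decay factors bind AU-rich elements in them. In bulk tissue, fewer cells of a type and less RNA per cell cannot be told apart.

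The first 30 of the 60 bases of each probe are shown because 2 probes of the same gene, Cxcl3, gave opposite results. In the order of the lines, the probes lie at chr14:18690468-18690527, chr14:18677236-18677295, chr14:18786864-18786923 and chr14:18767637-18767696 on the minus strand and at chr9:73623639-73623698 on the plus strand of build rn3, per the array design; the exon or untranslated region each one reads was not determined here.
Cxcl1: attgaaagttgtctttcatattttatggtc
Cxcl2: gttcaacaatcgtaatgtgaatatcccctg
Cxcl3, brighter probe: tctcaaggatggtcaagaagtttgtctcaa
Cxcl3, other probe: tgaagtttatgtacagtgttgagtttgaaa
Cxcr2: ccatcttcattcttcggactactgttaagg

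The 3 ligand genes are close paralogs in one cluster. The Cxcl1 and Cxcl2 probes lie 13232 bases apart, and the Cxcl3 probes lie 19227 bases apart. Over their full length no 2 ligand probes shared a run of more than 8 bases, but transcripts of the paralogs may still bind each other's probes, so which paralog a probe read is uncertain. The brighter Cxcl3 probe represents the gene below, and the other probe is given beside it.

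The 250 bases before the RefSeq start of Cxcl1 and Cxcl2 (assembly GRCr8) are shown because both genes were high on the obstruction/vehicle arrays. No such window was available for Cxcl3, which was also high there by its brighter probe, or for its neighbour Pf4. Capitals mark every match to a form of the NF-kappa-B motif, GGG followed by any 2 bases and TTTCC, searched on both strands; matches did not overlap.
Cxcl1, chr14:17479322-17479571, minus strand: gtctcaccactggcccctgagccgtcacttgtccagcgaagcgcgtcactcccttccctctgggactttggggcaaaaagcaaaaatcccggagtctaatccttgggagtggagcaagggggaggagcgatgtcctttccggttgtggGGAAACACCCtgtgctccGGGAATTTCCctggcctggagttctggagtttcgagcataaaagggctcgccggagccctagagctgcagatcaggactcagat
Cxcl2, chr14:17467256-17467505, minus strand: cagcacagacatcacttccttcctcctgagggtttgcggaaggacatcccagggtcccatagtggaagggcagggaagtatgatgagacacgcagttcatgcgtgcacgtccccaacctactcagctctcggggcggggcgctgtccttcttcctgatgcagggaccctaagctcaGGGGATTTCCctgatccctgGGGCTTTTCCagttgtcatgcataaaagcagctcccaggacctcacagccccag

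Each of these windows held 2 matches. In Cxcl1 they began 102 and 84 bases before the start, and in Cxcl2 they began 74 and 54 bases before it. Of 33469 promoter windows of this length in the table, 435 (1.3%) held at least 1 match. The window of Cxcl6, a neighbouring ligand gene, held 1 match, and those of Cxcr2, Cxcr1 and Ppbp held none. A match describes the letters only; binding was not measured.

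Values below are log2 ratios of Cy5, which carried the group's own RNA, over Cy3, which carried sham/vehicle RNA on every array. For a bright probe a value near 0 means a level near that of sham/vehicle rats. For a dim probe the offset of 50, added to both channels in background correction, draws the ratio toward 0. Differences are between group means of these log2 ratios ± SE, tested with limma over all 36098 kept probes and called at a Benjamini-Hochberg adjusted p under 0.05.

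Cxcl2, a ligand released early by macrophages and epithelium, showed the largest change of the set. Its log2 ratio was -0.06, 0.09 and 0.07 on the 3 sham/vehicle arrays and 7.49, 6.71 and 7.73 on the 3 obstruction/vehicle arrays. On the obstruction/Eviprostat arrays it was 0.14, 0.32 and 0.32, and on the sham/Eviprostat arrays -0.10, 0.21 and 0.29. Every obstruction/vehicle array lay far above every array of the other 3 groups, which lay within a narrow band around 0.

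Cxcl1, the ligand long used as the rat counterpart of human interleukin-8, had log2 ratios of -0.05, -0.05 and -0.01 in sham/vehicle and 5.59, 3.38 and 5.45 in obstruction/vehicle rats. With Eviprostat it was 0.09, 0.01 and 0.04 in obstructed and 0.02, -0.28 and 0.02 in sham rats. The obstruction/vehicle group again stood apart, with replicate 2 lower than the other two. The scanner software's own log2 ratios for these arrays were 6.13, 6.28 and 6.11 and show no such gap. After loess and Aquantile normalization the log2 Cy5 levels were 13.27, 13.12 and 13.10 and the log2 Cy3 levels 7.68, 9.74 and 7.65. The gap thus lay in the normalized Cy3 level, while processed Cy3 intensity was 248, 236 and 243. Its cause was not tested. Cxcl1 was dim outside obstruction/vehicle: its Cy5 signal was well above background on 1 of 3 sham/vehicle, 2 of 3 sham/Eviprostat and 3 of 3 arrays of each obstructed group.

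Cxcl3, the third ligand of the cluster, had log2 ratios of -0.04, -0.02 and 0.07 in sham/vehicle and 4.33, 3.32 and 3.72 in obstruction/vehicle rats by its brighter probe. With Eviprostat it was 0.21, -0.10 and -0.08 in obstructed and 0.27, -0.07 and 0.10 in sham rats. Here too the obstruction/vehicle arrays were high and did not overlap the others. The other Cxcl3 probe gave -0.05, 0.12 and 0.03 in sham/vehicle and -0.69, -0.06 and -0.58 in obstruction/vehicle rats. It gave 0.11, 0.22 and 0.14 in obstruction/Eviprostat and -0.31, -0.19 and -0.21 in sham/Eviprostat rats. By this probe obstruction/vehicle was the lowest group on average, the opposite of the brighter probe.

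Cxcr2, the receptor, stayed within a small range. Its log2 ratio was -0.02, 0.12 and 0.05 in sham/vehicle, 0.20, 0.07 and 0.50 in obstruction/vehicle, 0.07, 0.12 and 0.04 in obstruction/Eviprostat, and -0.08, -0.08 and -0.08 in sham/Eviprostat rats. The obstruction/vehicle arrays spread widely and overlapped the sham/vehicle arrays.

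**Figure D1:**
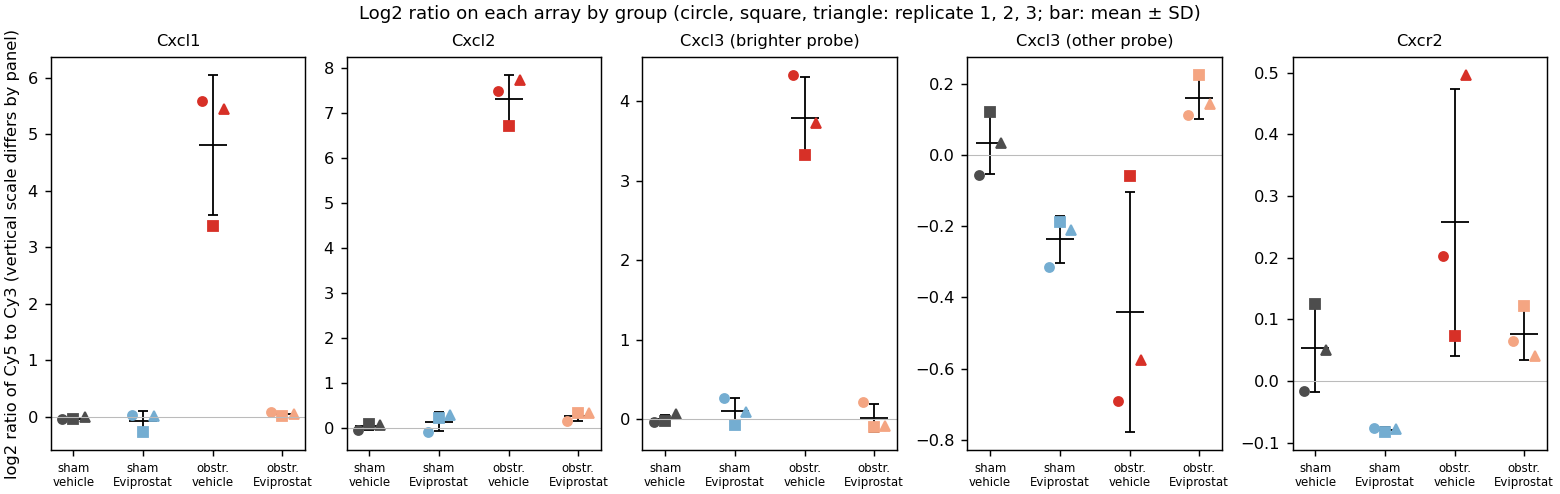
Log2 ratio of Cy5 to Cy3 (vertical axis, scale differs by panel) for each of the 5 probes on each array, by group; symbols are replicates 1, 2 and 3 and bars are the mean ± SD of 3 arrays. Cxcl1, Cxcl2 and the brighter Cxcl3 probe are high only on the obstruction/vehicle arrays, the other Cxcl3 probe is lowest there on average, and Cxcr2 overlaps between obstruction/vehicle and sham/vehicle.

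Obstruction under vehicle was set against sham under vehicle to show what obstruction did to these genes. All 3 ligands rose and Cxcr2 did not pass the test. Over all kept probes 7.16% were called higher in this comparison and 11.6% were called in either direction (4191 probes, or 9125 with the slide as a block), and 12.9% had every obstruction/vehicle array above every sham/vehicle array. The group mean of Cxcl2 went from 0.03 ± 0.08 to 7.31 ± 0.53 (SD, n = 3), a difference of 7.28 ± 0.21 with a limma adjusted p of 1.26e-09, which ranked 2 from the highest among 36098 probes. Cxcl1 went from -0.03 ± 0.03 to 4.81 ± 1.24 (SD, n = 3), a difference of 4.84 ± 0.42 with a limma adjusted p of 1.35e-05, and ranked 14. Cxcl3 went from 0.00 ± 0.06 to 3.79 ± 0.51 (SD, n = 3), a difference of 3.79 ± 0.20 with a limma adjusted p of 2.18e-07, and ranked 36.

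All 3 ligands were higher with obstruction on each of the 3 slides, Cxcl3 by its brighter probe. The differences were 5.64, 3.43 and 5.46 for Cxcl1, 7.54, 6.62 and 7.66 for Cxcl2, and 4.37, 3.34 and 3.66 for Cxcl3. Leaving out obstruction/vehicle replicate 2 moved the Cxcl1 difference to 5.56. By contrast the other Cxcl3 probe fell, with a difference of -0.47 ± 0.14 (limma adjusted p 0.0446), where 4.45% of all probes were called lower. For Cxcr2 the difference was 0.20 ± 0.10, with a 95% interval from -0.02 to 0.43 and a limma adjusted p of 0.252. Its sign differed between slides, at 0.22, -0.05 and 0.45.

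The scanner's processed intensities show the same ligand pattern without the ratio. Mean Cy5 intensity of Cxcl2 was 85.0 in sham/vehicle, 256482 in obstruction/vehicle and 203 in obstruction/Eviprostat rats. For Cxcl1 these means were 18.8, 17492 and 37.9, and for the brighter Cxcl3 probe 126, 42723 and 149. The ratio of obstruction/vehicle to sham/vehicle was 3019-fold for Cxcl2, 931-fold for Cxcl1 and 338-fold for Cxcl3, larger than the fitted log2 differences. The Cxcl1 and Cxcl2 ratios are imprecise, since in sham/vehicle only 1 of 3 and 2 of 3 arrays were well above background. For the other Cxcl3 probe the Cy5 means were 167, 201 and 326, so this intensity, not scaled between arrays, was not lower with obstruction. After loess and Aquantile normalization, its Cy5 log2 difference between obstruction/vehicle and sham/vehicle was -0.34. For Cxcr2 they were 77.5, 302 and 96.5, a 3.9-fold ratio of obstruction/vehicle to sham/vehicle.

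The Cy3 channel, which carried sham/vehicle RNA on every array, was also brighter at these spots on the obstruction/vehicle arrays. Mean Cy3 intensity on obstruction/vehicle over sham/vehicle arrays was 10.2-fold for Cxcl1 (242 against 23.8), 10.2-fold for Cxcl2 (939 against 91.7) and 21.4-fold for the brighter Cxcl3 probe (2883 against 135). It was 2.45-fold for the other Cxcl3 probe and 2.81-fold for Cxcr2. Across the array, all 8 probes whose Cy5 log2 difference was above 8 and all 18 with one from 6 to 8 also had higher Cy3, with median Cy3 log2 differences of 2.89 and 2.06. A brighter Cy3 lowers the ratio; its part in the differences, and in the fall of the other Cxcl3 probe, was not tested.

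**Figure D2:**
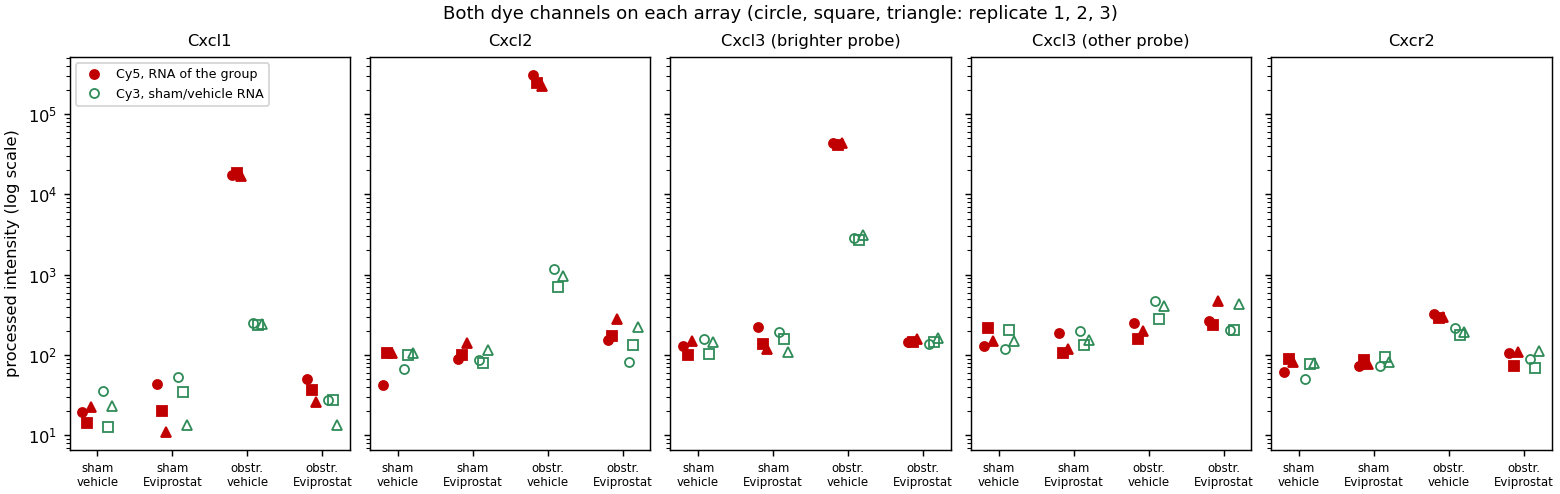
Processed Cy5 intensity (filled, RNA of the group) and Cy3 intensity (open, sham/vehicle RNA) for each probe on each array, log scale, by group; symbols are replicates 1, 2 and 3. The 3 ligands rise in Cy5 on the obstruction/vehicle arrays to means of 17492, 256482 and 42723, and Cy3 rises with them by 10.2-fold, 10.2-fold and 21.4-fold.

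Obstruction under Eviprostat was set against obstruction under vehicle to show what the treatment did in obstructed rats. All 3 ligands were lower with Eviprostat, against 5.89% of all probes called lower and 9.8% called in either direction (3536 probes, or 8494 with the slide as a block). Each ligand had every obstruction/Eviprostat array below every obstruction/vehicle array, as did 12.4% of all probes. This comparison shares its obstruction/vehicle arrays with the previous one, so the 2 sets of values are not independent. Cxcl2 fell by 7.05 (SE 0.21, limma adjusted p 1.85e-09), and its difference was the lowest of all 36098 probes. Cxcl1 fell by 4.76 (SE 0.42, limma adjusted p 2.14e-05) and Cxcl3 by 3.78 (SE 0.20, limma adjusted p 3.25e-07). The falls on the 3 slides were -7.35, -6.39 and -7.40 for Cxcl2, -5.51, -3.37 and -5.41 for Cxcl1 and -4.12, -3.42 and -3.81 for Cxcl3. Its other probe rose by 0.60 ± 0.14 (limma adjusted p 0.0163), where 3.9% of all probes were called higher. Cxcr2 differed by -0.18 ± 0.10, with a 95% interval from -0.41 to 0.04 and a limma adjusted p of 0.335.

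Obstructed rats given Eviprostat were also set against sham/vehicle rats. The differences were 0.23 ± 0.21 for Cxcl2, 0.08 ± 0.42 for Cxcl1, 0.01 ± 0.20 for Cxcl3 and 0.02 ± 0.10 for Cxcr2, each with a limma adjusted p of 1. The 95% intervals ran from -0.22 to 0.68 for Cxcl2, from -0.84 to 1.01 for Cxcl1, from -0.43 to 0.45 for Cxcl3 and from -0.20 to 0.25 for Cxcr2. Each SE pools the spread within all 4 groups, and Cxcl1 had an SD of 1.24 in obstruction/vehicle, which this comparison leaves out. With only the 6 arrays compared the SE was 0.06 for Cxcl1 and 0.08 for Cxcl2. With the scanner log ratio the difference was 1.00 for Cxcl1 (limma adjusted p 0.069) and 0.75 for Cxcl2 (0.1). By that ratio it was 0.10 for Cxcl3 and -0.06 for Cxcr2. Mean processed Cy5 intensity over sham/vehicle was 2.02-fold for Cxcl1, 2.39-fold for Cxcl2, 1.18-fold for Cxcl3 and 1.25-fold for Cxcr2. In this comparison 0.294% of all probes were called in either direction (106 probes, or 897 with the slide as a block). For Cxcl1 and Cxcl2 every obstruction/Eviprostat array nevertheless lay above every sham/vehicle array, an arrangement that 8.81% of all probes showed in that direction.

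In sham rats Eviprostat was set against vehicle, and none of the 4 genes passed the test, against 1.53% of all probes (552 probes, or 2282 with the slide as a block). The differences were 0.10 ± 0.21 for Cxcl2 (limma adjusted p 0.962), -0.05 ± 0.42 for Cxcl1 (0.995), 0.10 ± 0.20 for Cxcl3 (0.959) and -0.13 ± 0.10 for Cxcr2 (0.79). At an unadjusted p under 0.05 none of the 4 passed either; the lowest was 0.224, for Cxcr2. For the other Cxcl3 probe the difference was -0.27 ± 0.14 (limma adjusted p 0.557). For it and for Cxcr2 every Eviprostat array lay below every vehicle array, as 10.5% of all probes did. The 95% intervals, from -0.35 to 0.55 for Cxcl2 and from -0.97 to 0.88 for Cxcl1, leave room for changes that this fit could not resolve. These widths too carry the spread of the obstruction/vehicle arrays. With only the 6 arrays compared the SE was 0.12 for Cxcl2 and 0.10 for Cxcl1.

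Obstruction under Eviprostat was compared with sham under Eviprostat, where 2.28% of all probes were called (823 probes, or 3157 with the slide as a block). Cxcl2 differed by 0.13 ± 0.21 (limma adjusted p 0.883) and Cxcl1 by 0.13 ± 0.42 (0.952). Cxcl3 differed by -0.09 ± 0.20 (limma adjusted p 0.926) and Cxcr2 by 0.15 ± 0.10 (0.628). With only the 6 arrays compared the SE of Cxcl1 was 0.10. For the other Cxcl3 probe the difference was 0.40 ± 0.14 with a limma adjusted p of 0.217, which became 0.0324 with the slide as a block. For it and for Cxcr2 the obstructed arrays all lay above the sham arrays, as 12.1% of all probes did.

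The effect of Eviprostat in obstructed rats was then tested against its effect in sham rats, as an interaction. It differed for the 3 ligands, by -7.14 ± 0.29 for Cxcl2 (limma adjusted p 4.13e-08), -4.72 ± 0.60 for Cxcl1 (0.000442) and -3.88 ± 0.28 for Cxcl3 (6.47e-06). Over all probes 8.66% had an interaction that passed the test (3127 probes, or 7919 with the slide as a block), 4.89% below 0 and 3.78% above it. At the other Cxcl3 probe the interaction was 0.87 ± 0.19 (limma adjusted p 0.0167). For Cxcr2 the interaction was -0.05 ± 0.15, with a 95% interval from -0.37 to 0.27 (limma adjusted p 0.89).

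The remaining CXC ligands were measured for comparison, each by its brightest probe. Of 10 measured, 3 rose with obstruction under vehicle and none fell, with a median difference of 0.19, against a median of 0.00108 over all represented genes. Beside this count and those of the lists below, 7.16% of all probes were called higher and 4.45% lower with obstruction under vehicle. Pf4, a platelet chemokine whose probe lies next to those of Cxcl3, rose by 1.61 ± 0.28. Cxcl13, which attracts B cells, rose by 1.05 ± 0.16, and Cxcl12, the ligand of Cxcr4, by 0.95 ± 0.18. Cxcl6, another ligand of Cxcr2, differed by 0.34 ± 0.13 (limma adjusted p 0.132), and Ppbp, also a ligand of Cxcr2, by -0.06 ± 0.08 (0.691). Along this stretch of chromosome 14 the probes of Cxcl2, Cxcl1 and Pf4 and the brighter probe of Cxcl3 were called higher, the other Cxcl3 probe, which lies between Cxcl1 and the brighter one, was called lower, and those of Ppbp and Cxcl6, which follow, did not pass the test. The array design names the Cxcl6 probe Cxcl5, which the RefSeq table lists as a synonym of Cxcl6, and no other probe was read as Cxcl5.

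With Eviprostat in obstructed rats Pf4 fell by 1.39 and Cxcl13 by 1.22, while Cxcl14 rose by 0.63 and Cxcl17 by 0.55. Over all probes 5.89% were called lower and 3.9% higher in this comparison, which also stands beside the lists below. With the slide as a block 4 of the 10 fell and 4 rose, where 4373 and 4121 of 36098 probes did. Without obstruction/vehicle replicate 1, or obstruction/Eviprostat replicate 2 or 3, only 1 of the 10 rose. Of 6 other CXC and atypical receptors measured, Cxcr4, which binds Cxcl12, rose by 1.03 ± 0.15 with obstruction and fell by 0.92 with Eviprostat; with the slide as a block 2 of the 6 rose and 1 fell with obstruction. Cxcr1, the nearest paralog of Cxcr2, differed by 0.01 ± 0.11 with obstruction (limma adjusted p 0.972). The atypical receptor Ackr1, which presents chemokines on venules, was not measured.

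Signals that switch the ligand genes on rose in part. Of 13 measured cytokines, receptors and adaptors, 7 rose with obstruction under vehicle and none fell, with a median difference of 0.78. Il1b, the secreted interleukin-1 beta, rose by 3.66 ± 0.14, and its dimmer probe by 5.84. Il1a, its relative interleukin-1 alpha, rose by 2.70 ± 0.34, the Toll-like receptor Tlr2 by 2.10 ± 0.24 and the endotoxin co-receptor Cd14 by 1.73 ± 0.11. Tnf differed by 0.08 ± 0.07 (limma adjusted p 0.551). With Eviprostat in obstructed rats 6 of the 13 fell and none rose, Il1b by 3.62 and Il1a by 2.76. In sham rats none of the 13 was called with Eviprostat, and 1 was called higher with the slide as a block.

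Of 11 genes of the NF-kappa-B and C/EBP transcription factors and their inhibitors, 8 rose with obstruction under vehicle and none fell, with a median of 0.78. Cebpd, a C/EBP factor of acute inflammation, rose by 3.37 ± 0.11. Nfkbia, the inhibitor that NF-kappa-B itself induces, rose by 2.36 ± 0.12 by its brighter probe and 0.98 by the dimmer one. Cebpb rose by 1.68 ± 0.20, and Nfkb2 by 1.20 ± 0.10, although the dimmer Nfkb2 probe differed by 0.12 (limma adjusted p 0.614). With Eviprostat in obstructed rats 8 of the 11 fell and none rose. Cebpd fell by 3.31 and Nfkbia fell by 2.45. With median centring in place of loess 4 of the 11 fell.

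Factors that destabilise or hold AU-rich transcripts were also followed. Of 6 measured, 2 rose with obstruction under vehicle, with a median of 0.24. Zfp36l2 rose by 0.91 ± 0.15 and Zfp36l1 by 0.81 ± 0.10, both close relatives of the decay factor Zfp36, which itself differed by 0.26 ± 0.15 (limma adjusted p 0.33). The dimmer Zfp36l2 probe differed by -0.03 (limma adjusted p 0.905). Both genes fell with Eviprostat in obstructed rats, by 0.92 and 0.93. Across the settings run, 0 to 3 of the 6 were called higher with obstruction under vehicle. With Eviprostat in obstructed rats 0 to 4 were called lower and 0 to 1 higher.

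Downstream of Cxcr2, 6 of 15 measured signalling genes rose with obstruction under vehicle and none fell, with a median of 0.31; 9 rose with the slide as a block. The myeloid kinase Lyn rose by 1.76 ± 0.29, the leukocyte GTPase Rac2 by 1.60 ± 0.26 and its exchange factor Vav1 by 1.26 ± 0.26. With Eviprostat in obstructed rats 6 of the 15 fell, or 9 with the slide as a block. Lyn fell by 1.72. The general components Arrb1, Arrb2 and Gnb2 differed by 0.08, -0.19 and 0.01 with obstruction and did not pass the test.

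**Figure D3:**
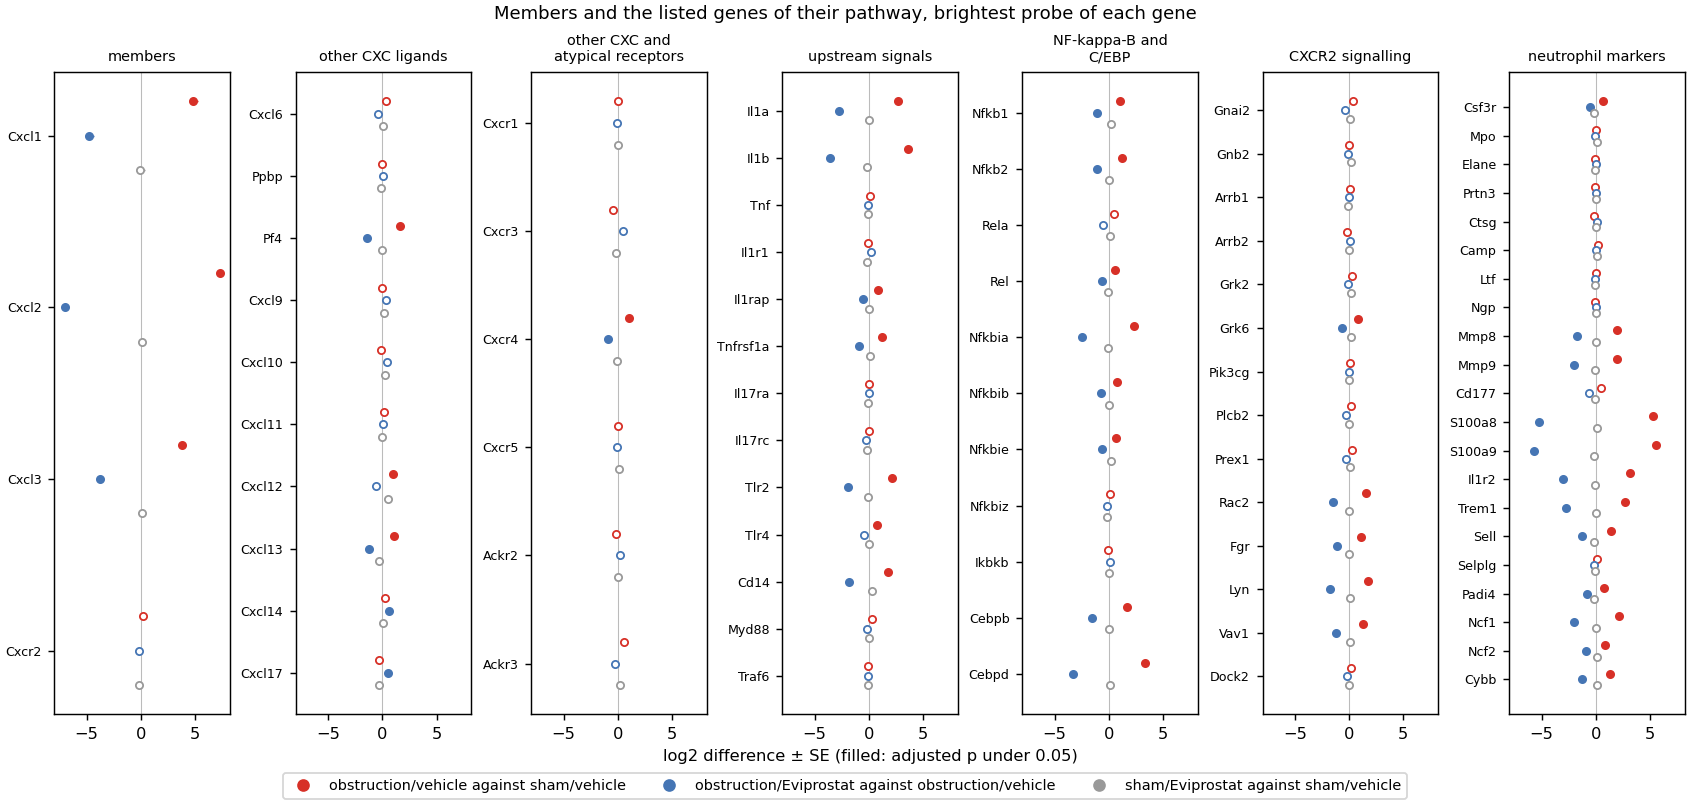
Log2 difference ± SE (horizontal axis) of the genes shown, by their brightest probe (most error bars are smaller than the points), for obstruction under vehicle (red), Eviprostat in obstructed rats (blue) and Eviprostat in sham rats (grey); filled points passed the test. Red and blue points lie on opposite sides of 0 for Cxcl1, Cxcl2, Cxcl3, Il1b, Cebpd, Lyn, S100a8 and S100a9, and no grey point is filled.

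Neutrophil markers were split. Of 21 measured, 12 rose with obstruction under vehicle and none fell, with a median of 0.79. The summed Cy5 intensity of the 21 went from 2176 to 2484 on the sham/vehicle arrays to 142580 to 166200 on the obstruction/vehicle arrays. Such a sum, here and below, weighs the brightest genes most and is not a level of every gene in the list. S100a9 and S100a8, the paired calcium-binding proteins of neutrophil cytosol, rose by 5.58 ± 0.30 and 5.27 ± 0.30. On the sham/vehicle arrays this S100a8 probe was not well above background, so 5.27 is no measured fold, and Cy5 alone put the rise at 260-fold or more. The dimmer S100a8 probes rose by 3.44 and 1.69. Il1r2, the decoy interleukin-1 receptor, rose by 3.22 ± 0.23, the activating receptor Trem1 by 2.72 ± 0.30 and Csf3r, the receptor for granulocyte colony-stimulating factor, by 0.67 ± 0.15.

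Genes for granule proteins that are transcribed mainly in bone marrow precursors did not pass the test, with differences of 0.04 for Mpo, -0.05 for Elane, 0.05 for Ltf and -0.06 for Ngp. Camp differed by 0.19 by its brighter probe and rose by 1.94 by the dimmer one (limma adjusted p 0.0109). The receptor of the 3 ligands was not called on these ratios while 12 other neutrophil markers rose. Its processed Cy5 intensity was 3.9-fold higher in obstruction/vehicle than in sham/vehicle, but Cy3 at the same spot was 2.81-fold higher too. Cxcr2 was called higher in 3 of 17 other settings, among them Cy5 alone, quantile normalized, at a log2 difference of 0.64. With Eviprostat in obstructed rats 12 of the 21 fell and none rose, S100a9 by 5.68 and S100a8 by 5.23, and the summed Cy5 intensity was 2733 to 3466. Without replicate 1 of every group 7 of the 21 rose and 7 fell in these 2 comparisons.

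Markers of other cells moved with the same comparison. Of 11 macrophage markers measured all 11 rose with obstruction under vehicle, with a median of 1.6, and their summed Cy5 intensity went from 14696 to 14879 on the sham/vehicle arrays to 152680 to 173610 on the obstruction/vehicle arrays. In obstruction/Eviprostat rats that sum was 26297 to 27446, above sham/vehicle on every array. Of 2 platelet markers none passed the test. Of 8 endothelial markers 3 rose and 1 fell, and of 3 urothelial markers 2 rose, with a median of 2.88. With Eviprostat in obstructed rats 9 of the 11 macrophage, 3 of the 8 endothelial and 2 of the 3 urothelial markers fell. The urothelial median was then -3.27, and in sham rats none of these 3 was called with Eviprostat. Summed urothelial Cy5 intensity was 1122.6 to 1398.8 in sham/vehicle, 31490 to 33789 in obstruction/vehicle and 1224.5 to 1282.1 in obstruction/Eviprostat rats.

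The prostate markers were measured on every array, with 8 of 8 well above background. With obstruction under vehicle 4 of the 8 fell, including Pbsn, the androgen-driven secretory protein probasin, by 1.37; without sham/vehicle replicate 1 or obstruction/vehicle replicate 3, 2 of the 8 fell. With Eviprostat in obstructed rats 4 of the 8 prostate markers rose. With obstruction under vehicle 4 of 6 skeletal muscle markers fell and none rose. Seminal vesicle secretory genes were well above background on every array but sham/vehicle replicate 1, where 5 of the 6 were, and all 6 measured rose with obstruction under vehicle, with a median of 5.51. They also rose in sham rats given Eviprostat, 6 of 6 with a median of 4.2. All 6 fell with Eviprostat in obstructed rats. Summed Cy5 intensity of these 6 genes was 268600 to 422910 in sham/vehicle, 763890 to 2234300 in sham/Eviprostat, 2333100 to 6616900 in obstruction/vehicle and 297200 to 449240 in obstruction/Eviprostat rats. The part of other cell types or tissues in the ligand differences was not tested.

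The genes nearest in pattern to each member were found by the root mean square difference of log2 ratios over the 12 arrays, with each gene set to 0 at its sham/vehicle mean. For Cxcl1 they were S100a8 (0.326), S100a9 (0.468), the tumour necrosis factor receptor Tnfrsf1b (0.469), the immunoglobulin receptor Fcgr2b (0.477) and G0s2 (0.593). For Cxcl2 they were S100a9 (0.886), S100a8 (1.05), G0s2 (1.15), Cxcl1 (1.27) and Fcgr2b (1.49), so none lay close. For Cxcl3 they were Tnfrsf1b (0.31), Gpnmb (0.312), Pilra (0.314), Cebpd (0.33) and Slc26a4 (0.357). Between the members themselves the distance was 0.643 for Cxcl1 and Cxcl3, 1.27 for Cxcl1 and Cxcl2, and 2.17 for the 2 Cxcl3 probes. Cxcr2 varied so little that its nearest genes, among them Il10ra (0.0704), Arhgef15 (0.0706), Lim2 (0.071) and Igf2bp2 (0.0723), were other genes that varied little.

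The size of the ligand rise depended on how the signals were processed, while its direction and call did not in any of 17 other settings each, the other Cxcl3 probe aside. With obstruction under vehicle the difference ran from 4.07 to 6.78 for Cxcl1, from 6.90 to 9.54 for Cxcl2 and from 1.66 to 6.77 for Cxcl3, the lowest Cxcl3 value coming from the mean of its 2 probes. For Cxcr2 it ran from 0.09 to 0.64 and was called in 3 of the 17, namely with the scanner's own log ratio, with no background correction and with Cy5 alone.

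**Figure D4:**
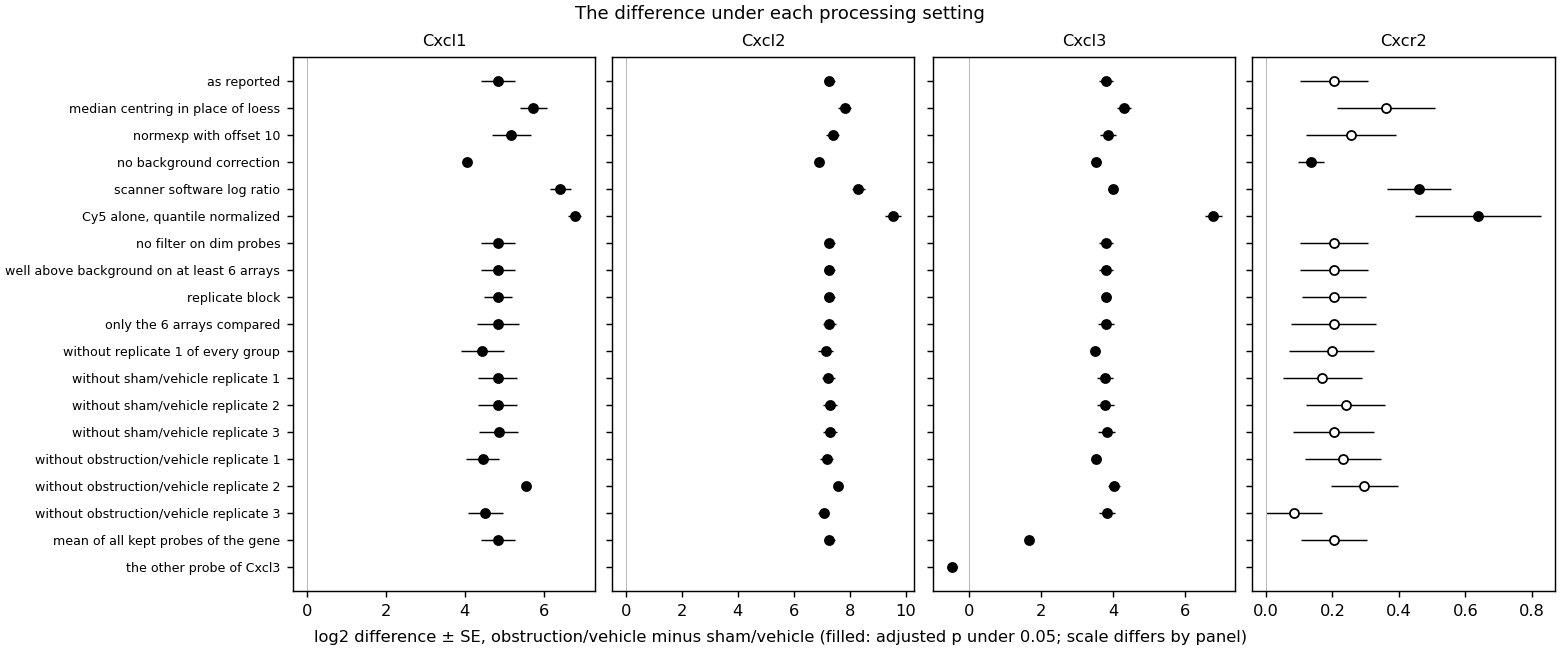
Log2 difference ± SE between obstruction/vehicle and sham/vehicle for each gene (horizontal axis, scale differs by panel) under each processing setting (rows); filled points passed the test. The points of Cxcl1, Cxcl2 and Cxcl3 are filled and above 0 in every setting but 1, in which the other Cxcl3 probe is at -0.47, and Cxcr2 is filled in 3 settings.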

How the data were processed

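Prostate RNA was measured on 12 two-colour Agilent arrays, 3 per group, on 3 slides of 4 arrays. The authors deposited scanner output of Agilent Feature Extraction (version 9.5.1.1 in the headers), whose intensity columns hold mean, background and processed signals; the deposited log10 ratio (red over green) equals the deposited value table at all 45018 spots of each array (largest difference 0), with medians of 0 on 11 arrays and -0.0045352 on obstruction/vehicle replicate 1. Per the labels' protocols, 1500 ng of sham/vehicle RNA was labelled and 300 ng of RNA from every other group. No dyes were swapped, and groups kept the same place on all slides, so group cannot be told apart from position. The scan day of slide 1 differed from that of the others.

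In limma 3.58.1 (R 4.3.3; statmod 1.5.0, data.table, version 1.17.8; figures in matplotlib 3.10.9 and pandas 2.3.3, Python 3.11.15) intensities were background-corrected (normexp, offset 50) and log2 ratios normalized by loess within arrays, with control and outlier spots at weight 0. Of 41012 probes, 36098 with Cy5 well above background on at least 3 of 12 arrays were kept. Well above background were 70.5% to 88.1% of probes in Cy5, fewest on slide 1 within each group; the number of arrays limits precision. One fit of all 12 arrays (8 residual degrees of freedom) gave the 6 comparisons. It was tried on simulated data whose arrays varied independently, so deviations shared by the arrays of a slide were not covered. Each gene is represented by its brightest kept probe. Lower bounds for probes not above background compare Cy5 levels after loess and Aquantile normalization; dye bias was not tested.

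The slide pairs the arrays, since same-numbered arrays lay on the same slide, per the file headers. Their deviations from group means correlated in all 18 pairs (r from 0.155 to 0.779, median 0.463). In the 36 pairs on different slides r ran from -0.702 to 0.558 (median -0.418). Pairs between slides 2 and 3 were all positive, from 0.0886 to 0.558, and pairs of slide 1 with either were all negative. Slide 1, scanned on another day, thus stood apart from slides 2 and 3. The fit with the slide as a block is given where it changes a member's call or moves a count by over 1.5 times, or where it ends a count of 0 that the text states.

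The members and gene lists were chosen with earlier results of these data known, so list counts are descriptions. Genes are named by rule: all members; up to 4 of the largest called changes per list, the defining markers and closest paralogs; and the 5 genes nearest in pattern to each member; genes that these rules name but that are not reported here stay in the counts. Arrb1, Arrb2, Gnb2, Cxcl14 and Cxcl17 were added after their values were seen. Alternatives covered normalization, background, ratio source, filter, block, arrays and probe. Names come from RefSeq (GRCr8): 10735 probes through an accession, 3729 through a synonym, 5541 by a current symbol, 158 by the array's symbol, and 20849 had none.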

Additional observations from a re-analysis of the deposited data

Results flagged for a closer look

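The effect of Eviprostat differed between obstructed and sham rats for the 3 ligands by the interaction test, at -4.72 for Cxcl1, -7.14 for Cxcl2 and -3.88 for Cxcl3 on the log2 scale. The other Cxcl3 probe differed in the opposite direction, at 0.872.

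The Cy3 channel carried the same sham/vehicle RNA on all arrays, yet its intensity at the member spots was higher on every obstruction/vehicle array than on any sham/vehicle array. The ratio of the group means was 10.2-fold for Cxcl1 and 10.2-fold for Cxcl2. It was 21.4-fold for the brighter Cxcl3 probe and 2.45-fold for the other one. For Cxcr2 it was 2.81-fold.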

How the results depend on the processing

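Of the other settings run for the 4 genes over 6 comparisons, the other Cxcl3 probe alone not counted, 408 kept direction and side of the threshold, 6 gained a call, 14 changed sign and 0 lost a call; the changed signs were of differences that were not called. With the slide as a replicate block the Cxcl2 rise with obstruction was 7.28 (limma adjusted p 1.43e-10), and apart from the other Cxcl3 probe between obstruction/Eviprostat and sham/Eviprostat no call on a member changed. Cxcr2 with obstruction under vehicle was called with no background correction (0.13, limma adjusted p 0.0346), with the scanner log ratio (0.46, 0.00313) and with Cy5 alone (0.64, 0.0389), and with Eviprostat in obstructed rats in the first 2 (-0.13 and -0.52); over all alternatives its adjusted p ran from 0.00313 to 0.657 and from 0.00177 to 0.747. The scanner log ratio also called Cxcl1 between obstruction/Eviprostat and sham/Eviprostat (1.11, 0.0266; range 0.0266 to 1) and turned Cxcr2 between obstruction/Eviprostat and sham/vehicle to -0.057. Cy5 alone turned the effect of Eviprostat in sham rats to 0.17 for Cxcl1 and 0.0015 for Cxcr2. Without replicate 1 of every group, Cxcl3 turned to -0.0088 for Eviprostat in sham rats and to -0.11 between obstruction/Eviprostat and sham/vehicle, where Cxcr2 turned to -0.0064. Leaving out 1 array at a time, the ranges of results that changed sign were -0.092 to 0.063 for Cxcl3 and -0.012 to 0.059 for Cxcr2 between obstruction/Eviprostat and sham/vehicle, -0.096 to 0.054 for Cxcl1 with Eviprostat in sham rats, and -0.14 to 0.070 for the Cxcr2 interaction. The mean of both Cxcl3 probes turned Cxcl3 to -0.086 with Eviprostat in sham rats and to 0.15 between obstruction/Eviprostat and sham/Eviprostat. The other Cxcl3 probe alone, chosen after seeing the data, gave -0.47 for obstruction, 0.60 for Eviprostat in obstructed rats, -0.27 for Eviprostat in sham rats, 0.40 for obstruction under Eviprostat and 0.87 for the interaction. Where no cause is shown by the alternative's construction, the cause was not tested.

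Counts over all probes moved more. From median centring to the scanner log ratio they ran from 1788 to 14480 for obstruction under vehicle (as reported 4191), from 1329 to 13521 for Eviprostat in obstructed rats (3536), from 64 to 3423 for Eviprostat in sham rats (552), from 140 to 4279 for obstruction under Eviprostat (823), from 10 to 1924 for obstruction/Eviprostat against sham/vehicle (106) and from 1017 to 11711 for the interaction (3127). The share called higher was 61.6% for obstruction under vehicle as reported, 90.2% with median centring and 40.9% with the scanner log ratio, and 39.8%, 9.93% and 57.8% for Eviprostat in obstructed rats. These 2 counts were 7911 and 7158 with no background correction and 1834 and 1768 with only the 6 arrays compared. Leaving out 1 array gave 2403 (sham/vehicle replicate 3) to 7196 (obstruction/vehicle replicate 2) and 1890 (obstruction/Eviprostat replicate 3) to 6374 (obstruction/vehicle replicate 2). Signal limits Cxcl1 outside obstruction/vehicle, where some arrays were not well above background.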
